A study of Sus scrofa domesticus with 9 samples.

Results

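Fatty acid synthesis in the liver was described through 10 genes, taken by gene symbol: MLXIPL, PNPLA3, SREBF1, FASN, ACACA, ACLY, SCD, ELOVL6, ME1 and THRSP. All 10 had a mean level in the authors' table of 16223 genes, and 1 of them, MLXIPL, also had values for every liver in the authors' table of 1054 genes. The comparison between feeding groups therefore rests on MLXIPL and on related genes with values per liver. For the other 9 genes only the level over the series is given, and their values by group were not analysed here. The livers came from preterm Yorkshire piglets, delivered by caesarean section and sampled on day of life 15. In the PN group, 6 piglets received parenteral nutrition (PN), an intravenous mixture of amino acids, dextrose, vitamins and a soybean oil lipid emulsion, from the first day of life until sacrifice. In the bottle-fed group, 3 piglets were started on PN and then fed sow milk replacer by bottle. The PN piglets also received a medium chain triglyceride vehicle by gavage, and the groups came from separate sows, so feeding, litter and vehicle cannot be told apart.

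De novo lipogenesis turns surplus carbohydrate into fatty acids. ACLY splits citrate to supply acetyl-CoA, ACACA carboxylates it to malonyl-CoA, FASN builds palmitate, and ELOVL6 and SCD lengthen and desaturate the product. ME1 supplies NADPH for these steps and THRSP, also called Spot 14, is a lipogenic protein that thyroid hormone and carbohydrate induce. A pair of transcription factors drives the programme. SREBF1 encodes SREBP-1, whose liver form follows insulin, and MLXIPL encodes ChREBP, which responds to glucose metabolites and acts with its partner MLX. PNPLA3, a lipid droplet protein of the patatin-like phospholipase family, is known in humans and mice as a target of both factors.

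Total counts ran from 17106838 to 24025142 in the bottle-fed and from 17337946 to 23421807 in the PN livers. The paper left out PN 5 as an outlier in gene expression, so values are given for the remaining 5 PN livers and then with PN 5. The liver label was checked against 9 hepatocyte markers, of which 8, ALB and TF among them, had an authors' mean above that of at least 96.1% of genes, while SERPINA1 lay above 23.6%. Values per liver are normalized counts, that is, raw counts scaled by the authors for the depth of each library. The study describes the sex distribution of the included piglets as similar between the groups and all samples as processed in 1 batch, and the sex of single livers is not given in the sources used here.

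MLXIPL (ENSSSCG00000007710) lies on the minus strand of chromosome 3 of Sscrofa11.1, from 10894270 to 10934047. To show what the motif search below reads, the 120 bases before the start of the RefSeq model are given for SCD, 1 of the 3 genes with 2 NF-Y boxes among the 9 searched besides MLXIPL, and for KHK, a carbohydrate-response gene with values per liver. Capitals mark the NF-Y box CCAAT and the E-box core CACGTG, the letters that E-box factors such as ChREBP read in part.
SCD, chr14:111461440-111461559, plus strand, RefSeq on Sscrofa11.1: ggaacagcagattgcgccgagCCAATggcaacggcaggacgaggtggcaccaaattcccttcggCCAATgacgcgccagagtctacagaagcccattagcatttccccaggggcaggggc
KHK, chr3:112031616-112031735, minus strand, RefSeq on Sscrofa11.1: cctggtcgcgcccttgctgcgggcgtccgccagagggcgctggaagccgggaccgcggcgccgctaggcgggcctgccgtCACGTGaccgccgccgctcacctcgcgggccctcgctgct

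Both strands of the 250 bases before the starts of the 9 genes other than MLXIPL were searched for 4 short motifs, counting overlapping matches. The NF-Y box CCAAT was found before 5 of the 9 genes (PNPLA3, ACLY, SCD, ELOVL6 and THRSP) and before 31.9% of 19544 protein-coding genes. In SCD it stood at 99 to 95 and at 56 to 52 bases before the start, and ACLY and ELOVL6 also had 2 matches each. The Sp1 box GGGCGG was found before 6 of the 9 genes and before 45.9% of all, with 5 matches before SREBF1. The E-box core CACGTG and the sterol regulatory element TCACNCCAC were found before none of the 9, and before 6.39% and 0.803% of all genes. FASN held none of the 4 motifs in this window. These matches describe the letters in 1 window per gene and do not show where a factor binds.

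Levels of the 10 genes were compared per length, as the authors' mean normalized count per kb of RefSeq exon. This mean is the authors' value over both feeding groups, with no spread, and the libraries behind it are not named: for MLXIPL it was 2564 per gene, against 2186 over the 9 livers with values. THRSP stood highest, at 8767 per kb, above 98.9% of the 11512 genes matched to an exon length. FASN followed at 1609 per kb, then ELOVL6 at 1103 and SCD at 986. The transcription factor genes SREBF1 (856 per kb) and MLXIPL (657 per kb) came next, below FASN, ELOVL6 and SCD. The genes of the first lipogenic steps were lower, with ACLY at 223 and ACACA at 136 per kb. PNPLA3 at 43.9 and ME1 at 23.5 per kb were the lowest, under the median of 73.8 per kb for all matched genes. The distance from THRSP to ME1 was 372-fold. Which neighbours in this order differ beyond their spread cannot be said from a mean without spread. The order also depends on the lengths, since RefSeq models can differ from the gene models counted. MLXIPL has 3904 bp of exon in RefSeq and a deposited length of 4574 bp. Before division by length FASN, at 12900, lay above THRSP, at 8706. RefSeq places another gene across part of PNPLA3, ACACA and ELOVL6 on the opposite strand, and whether the counting used strand is not given in the sources used here.

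**Figure D1:**
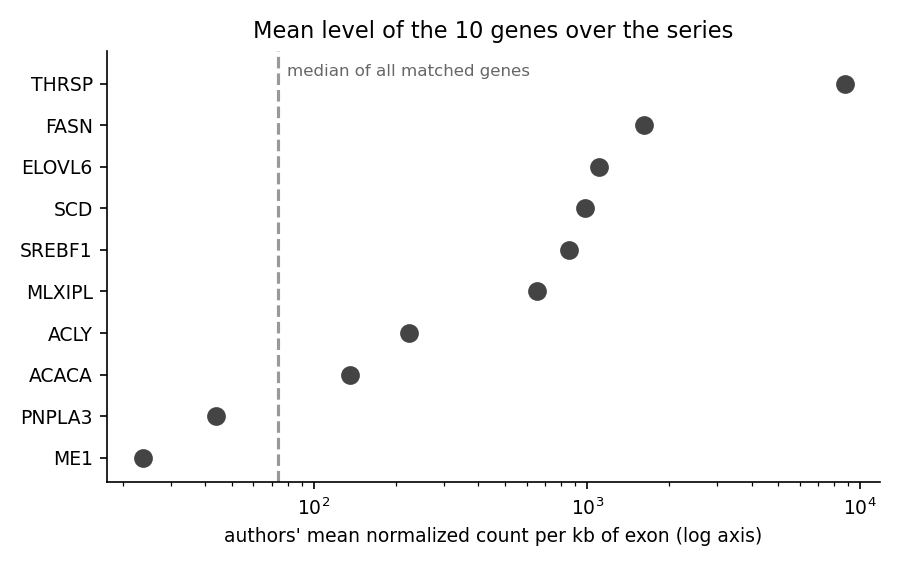
Authors' mean normalized count per kb of RefSeq exon for the 10 genes, on a log axis, 1 point per gene with no spread given. THRSP is at 8767 per kb and ME1 at 23.5, and the dashed line is the median of 73.8 over 11512 matched genes.

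MLXIPL was lower in PN livers. In bottle-fed livers 1, 2 and 3 its normalized count was 2837, 4222 and 3592. In PN livers 1, 2, 3, 4 and 6 it was 1976, 1701, 1145, 1306.5 and 1925, and PN 5 had 973, the lowest of all. Every PN liver therefore lay under every bottle-fed liver, with 861 normalized counts between the highest PN and the lowest bottle-fed liver, and PN 3, PN 4 and PN 5 lay under PN 1, PN 2 and PN 6. The mean was 3551 ± 693.5 (SD, n = 3) in the bottle-fed and 1611 ± 371 (SD, n = 5) in the PN group, which is 45.4% of the bottle-fed mean. Per length, the FPKM of MLXIPL ran from 31.6 to 46.8 in the bottle-fed livers and from 10.8 to 21.9 in all PN livers. Raw counts behind these values ran from 877 to 3663 per liver.

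The log2 fold change of MLXIPL was -1.14 (standard error 0.26, adjusted p = 0.00198, edgeR quasi-likelihood test over the 1054 genes), and -1.24 (standard error 0.29, adjusted p = 0.00233) with PN 5. The two-sided exact permutation test on log2 of the normalized count plus 1 gave p = 0.0179, the smallest that 3 against 5 livers allow, and p = 0.0119 over all 9 livers, the smallest there. All 1054 genes with values per liver met the authors' thresholds for a difference between these groups, so the test is no independent evidence. In the same fit 45.6% of these genes were called lower and 54.1% higher, and for 85.1% the groups lay apart without overlap (82.6% with PN 5). Against that background the call and the lack of overlap for MLXIPL say no more than that it was among the genes selected. Of the 16223 genes in the authors' larger table, 1037 (6.39%) had values per liver, and of the 10 genes described here 1 had them. The rest of the 1054 genes are not among those 16223.

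**Figure D2:**
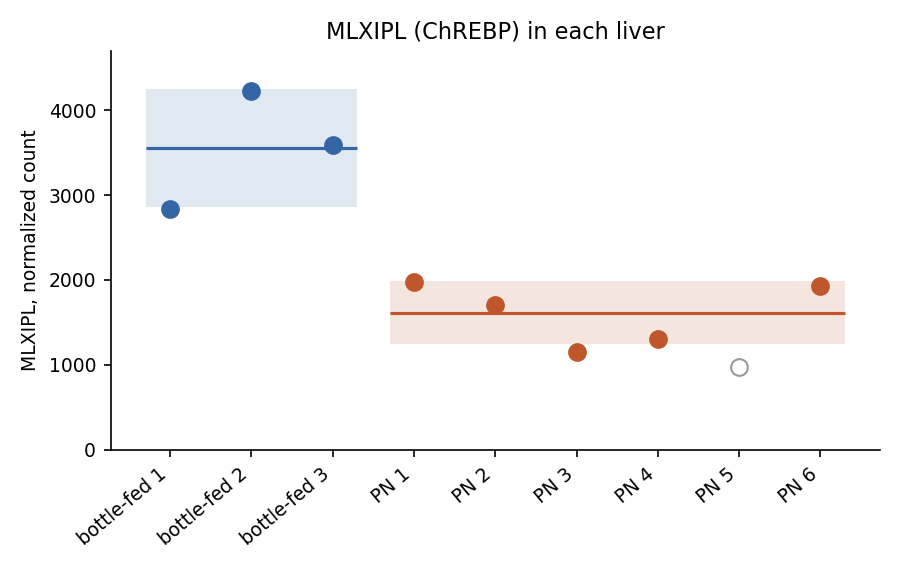
Normalized count of MLXIPL in each of the 9 livers, with the group mean as a line and 1 SD as a band, PN 5 (open point) left out of both. All PN livers, at 973 to 1976, sit under the bottle-fed livers, at 2837 to 4222.

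Marker genes of several cell types also differed between the groups. Of 72 marker genes listed for 10 cell types, 8 had values per liver, and these had them because they met the authors' thresholds. CPS1 was 1 of 9 hepatocyte markers measured and GPNMB 1 of 9 for macrophages. CSF3R was 1 of 4 for neutrophils, VWF 1 of 6 for endothelial cells and DCN 1 of 7 for stellate cells. For bile duct cells it was 3 of 5. A single selected gene does not stand for its cell type. CPS1, a urea cycle enzyme of hepatocytes, had a normalized count of 49685 to 58313 in bottle-fed and 20736.5, 22900, 24225, 18459 and 48854 in PN livers 4, 2, 1, 6 and 3, with 5290 in PN 5. The sum of KRT7, EPCAM and SPP1, expressed by bile duct cells though not by them alone, was 238.5 to 328.5 in bottle-fed and 637 to 2216 in all PN livers. Singly, KRT7 had 46.6 to 54.2 and 73.1 to 206, and EPCAM 63.5 to 96.5 and 229 to 881. SPP1 had 121 to 194 and 290 to 1214.5. GPNMB, a membrane protein of lipid-laden macrophages, was 502 to 552 and 1728 to 7100. The neutrophil receptor gene CSF3R had 8.07 to 22.9 and 17.6 to 114, VWF of endothelial cells 275.5 to 385 and 392.5 to 1208, and DCN of stellate cells 128 to 673 and 84.5 to 174. CSF3R and DCN overlapped between the groups, and none of the 8 was at 0 in any liver. In bulk tissue, fewer cells of a type and less RNA per cell cannot be told apart, and the part of these cell types in the MLXIPL result was not tested. PN 5 had the lowest value of all 9 livers for both CPS1 and MLXIPL, and PN 3 had the highest CPS1 and the lowest MLXIPL of the other 5 PN livers.

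Of 25 measured genes that carbohydrate regulates, or that act with ChREBP, 5 had values per liver. TXNIP, FGF21 and PPP1R3G were called higher and MLXIPL and KHK lower, beside 54.1% and 45.6% of all 1054 genes. TXNIP, which binds thioredoxin, curbs glucose uptake and is a classical carbohydrate-response gene, had normalized counts of 2174, 2016 and 1919 in the bottle-fed livers and 4959, 5029, 3779, 6096 and 4665 in PN livers 1, 2, 3, 4 and 6. PN 5 had 6276, and the groups lay apart. TXNIP had a log2 fold change of 1.27, with standard error 0.25 and adjusted p = 0.00100 (edgeR). FGF21, a hormone of the liver that fasting and sugars both raise, had 39.3, 87.6 and 33.3 in bottle-fed livers and 643, 330, 418, 475 and 373.5 in the same PN livers, with 385 in PN 5. This was an 8.39-fold difference of means without overlap (log2 fold change 3.08, standard error 0.39, adjusted p = 7.7e-05, edgeR). PPP1R3G, which brings a phosphatase to glycogen, rose from 23.2 ± 4.55 (SD, n = 3) to 63.8 ± 12.2 (SD, n = 5), with 30.0 in PN 5 and no overlap (adjusted p = 0.00374, edgeR).

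KHK, which takes fructose into metabolism by phosphorylation, was called lower by edgeR as MLXIPL was. Its normalized counts were 1417, 1764 and 1618 in bottle-fed livers and 613, 740.0, 399, 460.5 and 1507 in PN livers 1, 2, 3, 4 and 6, with 773 in PN 5. PN 6 lay within the bottle-fed range and all other PN livers under it. By edgeR the log2 fold change was -1.11, with standard error 0.37 and adjusted p = 0.0126, while the exact permutation test gave p = 0.0714, and p = 0.0357 with PN 5. KHK is the gene whose window above holds the E-box core, at 40 to 35 bases before the start. The windows of MGLL and PLIN4, both called higher with PN, held it too. No other among the 15 related genes with values per liver did, so it was 3 of 15, beside 6.39% of all genes. Whether ChREBP acts at these letters was not tested. KHK, FGF21, PPP1R3G, MGLL and PLIN4 overlap a gene on the other strand in RefSeq, so part of their counts may belong to it.

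ACSS2, GPAM and ACSL3, enzymes that supply acetyl-CoA or use fatty acids, were lower with PN. ACSS2, which makes acetyl-CoA from acetate in the cytosol, had normalized counts of 1459, 1723 and 1476 in bottle-fed and 725, 1397, 374, 540 and 460 in PN livers 1, 2, 3, 4 and 6, with 1094 in PN 5. Every PN liver was under every bottle-fed liver, though PN 2 lay near the bottle-fed livers (log2 fold change -1.15, standard error 0.37, adjusted p = 0.00985, edgeR). It was the only one of 17 measured genes of acetyl-CoA, malonyl-CoA and NADPH supply with values per liver. GPAM, the mitochondrial acyltransferase that starts triglyceride synthesis and a known SREBP-1 target in mice, fell from 3183 ± 315 (SD, n = 3) to 1398 ± 653 (SD, n = 5), with 1382 in PN 5, all PN livers being under the bottle-fed ones. ACSL3, which activates long-chain fatty acids at lipid droplets, fell from 1790 ± 418.5 (SD, n = 3) to 851 ± 270 (SD, n = 5), with 1107 in PN 5, again with no overlap. The deposited interval of ACSL3, chromosome 15 from 124568383 to 124817004, also holds the whole of MOGAT1 on the same strand, so its counts may include that gene. Similarly, the deposited interval of GPAM, chromosome 14 from 122538600 to 122724131, extends over TECTB and noncoding genes that RefSeq keeps apart. The log2 fold changes were -1.19 (standard error 0.33) for GPAM and -1.07 (standard error 0.30) for ACSL3, with adjusted p = 0.00521 and 0.00558 (edgeR).

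GPAT3 and AGPAT4, also of triglyceride synthesis, were higher with PN. GPAT3, an acyltransferase of the endoplasmic reticulum that carries out the same step as GPAM, had normalized counts of 118, 103 and 131 in bottle-fed and 773, 304, 216, 691 and 338 in PN livers 1, 2, 3, 4 and 6, with 405 in PN 5. The groups lay apart (log2 fold change 1.98, standard error 0.42, adjusted p = 0.00151, edgeR). AGPAT4, which adds the next fatty acid to lysophosphatidic acid, rose from 34.3 ± 18.7 (SD, n = 3) to 99.3 ± 36.1 (SD, n = 5), with 278 in PN 5 and no overlap (adjusted p = 0.00738, edgeR). With GPAM, these were the 3 genes with values per liver among 14 measured for triglyceride synthesis, and the other 11 were not analysed here by group. Per length, GPAM ran from 17.8 to 21.5 FPKM in bottle-fed and from 4.74 to 15.3 FPKM in all PN livers, and GPAT3 from 1.56 to 1.99 and from 3.27 to 11.7 FPKM. In PN 1, PN 4 and no other liver the FPKM of GPAT3 was above that of GPAM. The FPKM of GPAM rests on the wide deposited interval described above, so this order may not hold for GPAM alone.

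PLIN2, PLIN3 and PLIN4 encode coat proteins of the lipid droplet, where PNPLA3 resides. These 3, the coat protein genes with values per liver of 10 measured, were called higher, as were 54.1% of the 1054 genes selected by the authors. PLIN2, the main droplet coat of hepatocytes, had normalized counts of 447, 466 and 274 in bottle-fed and 4050, 2065, 3130, 4153 and 1680 in PN livers 1, 2, 3, 4 and 6, with 2842 in PN 5. The lowest PN liver was far above the highest bottle-fed liver, and the means differed 7.62-fold (log2 fold change 2.93, standard error 0.38, adjusted p = 7.7e-05, edgeR). PLIN3 rose from 594 ± 93.9 (SD, n = 3) to 1232 ± 379 (SD, n = 5), with 1742.5 in PN 5 and no overlap (adjusted p = 0.00493, edgeR). PLIN4 rose from 96.4 ± 21.2 (SD, n = 3) to 263 ± 27.0 (SD, n = 5), but PN 5 had 69.9, under all bottle-fed livers. Its log2 fold change was 1.45 (standard error 0.27, adjusted p = 0.000776, edgeR). With PN 5 the adjusted p was 0.0112, and the exact permutation test went from p = 0.0179 to 0.0714.

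G0S2, ABHD5 and MGLL act in lipolysis at the droplet. They were the genes with values per liver among 12 measured of the PNPLA family and its partners, and all 3 were called higher, against the same 54.1% of the selected genes. G0S2, which inhibits the triglyceride lipase PNPLA2, had normalized counts of 269, 432 and 252 in bottle-fed and 2666, 865, 2875, 2580.5 and 1731.5 in PN livers 1, 2, 3, 4 and 6, with 3568 in PN 5. PN 2 was the lowest PN liver and still above the bottle-fed livers (log2 fold change 2.75, standard error 0.41, adjusted p = 0.000196, edgeR). ABHD5, which activates PNPLA2 and in mice and cultured cells binds PNPLA3, had 879, 912 and 931 in bottle-fed and 3033, 2144, 3436, 3014 and 940.0 in PN livers, with 2717 in PN 5. PN 6 was barely above the bottle-fed livers, and the groups did not overlap (log2 fold change 1.47, standard error 0.37, adjusted p = 0.00325, edgeR). MGLL, which splits monoglycerides, was called higher by edgeR (log2 fold change 1.19, standard error 0.40, adjusted p = 0.0132), but PN 2 at 167 lay under the bottle-fed range of 179 to 221, and the exact permutation test gave p = 0.107. With DESeq2 size factors estimated on the table the call for MGLL was lost (adjusted p = 0.0565).

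**Figure D3:**
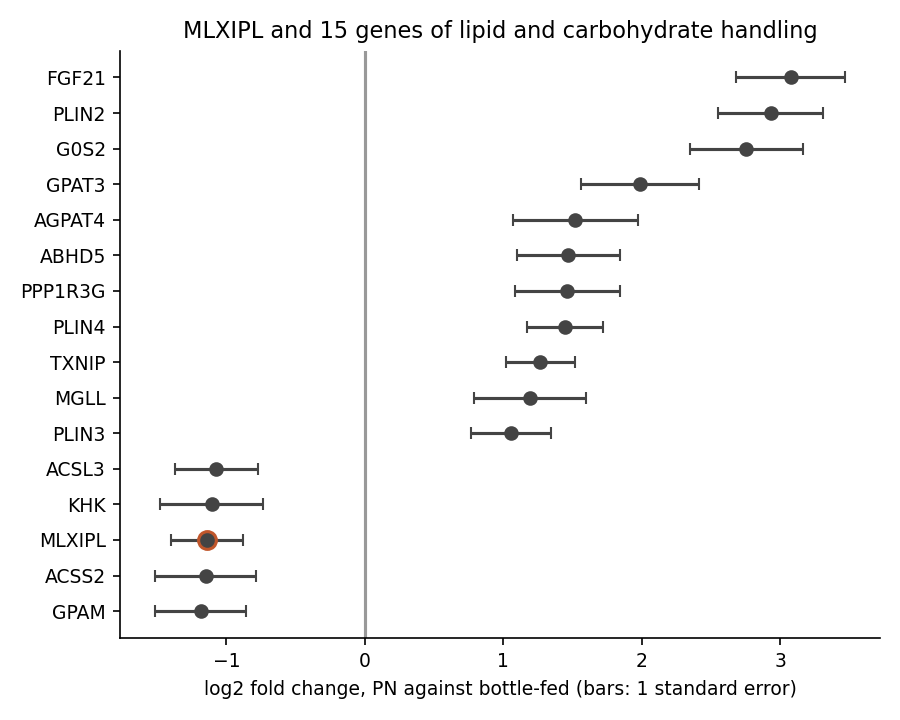
Log2 fold change of PN against bottle-fed livers without PN 5, with 1 standard error, for MLXIPL (coloured) and the 15 related genes with values per liver. MLXIPL at -1.14 stands with ACSS2, KHK, GPAM and ACSL3 between -1.19 and -1.07, just past the authors' threshold of 1 in either direction. FGF21 has the highest value at 3.08.

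Across the 15 related genes with values per liver, 11 were called higher and 4 lower, out of 120 measured in the lists, beside 54.1% higher and 45.6% lower over the 1054 genes, nearly all of which were called because of how they were selected. The median log2 fold change of the 15 was 1.45, beside 0.99 over all 1054 genes. Both medians mix the 2 directions and follow the share of genes in each. Over the 1054 genes the median was 1.64 for those with higher and -1.48 for those with lower estimates. The 5 genes called lower, MLXIPL among them, had bottle-fed means 2.10 to 2.28 times their PN means. In each of these 5 the lowest value of the PN livers other than PN 5 was in PN 3. The share of all genes called lower with their lowest value in PN 3 was not computed. Whether this is particular to these 5 therefore cannot be said. Of the 16 genes, MLXIPL included, 14 had no overlap, and 13 when PN 5 was counted, close to the 85.1% and 82.6% of all 1054 genes. No gene of the lists of SREBP processing (15 measured) and of other elongases and desaturases (17 measured) had values per liver.

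**Figure D4:**
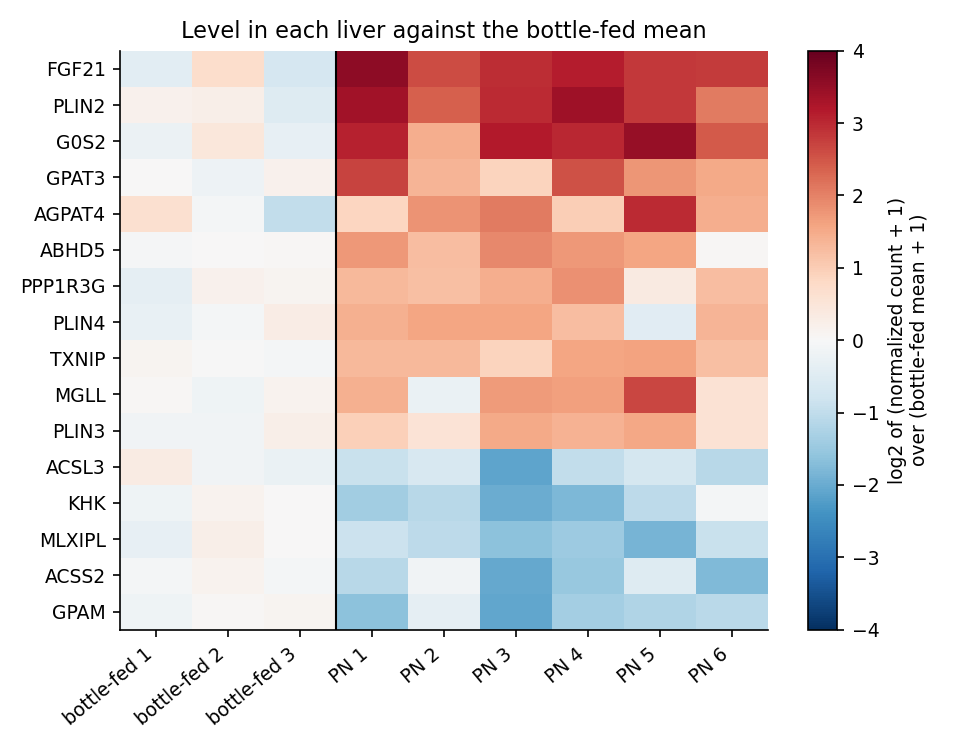
Log2 of the normalized count plus 1 over the bottle-fed mean plus 1 in each of the 9 livers, for MLXIPL and the 15 related genes, ordered by fold change. The genes called lower form the bottom rows, palest in PN 6 for KHK and in PN 2 for ACSS2.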

How the data were processed

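Liver RNA of 3 bottle-fed and 6 PN piglets was sequenced after poly-T selection. According to the methods and the submitters' processing notes, the authors filtered reads on quality, aligned them by HISAT2 2.0.5 (build Sscrofa11.1) and assigned them to genes by featureCounts 2.0.3. The deposited counts are raw counts per gene and library. The normalized signal values are the authors' counts divided by a size factor. The deposited FPKM, with gene length, gave the library totals. Fold change and p-value columns of the authors' own DESeq2 comparison, in both tables, were not used, except to check that the authors' thresholds (adjusted p under 0.05, log2 fold change beyond 1) hold for all 1054 genes. From the table of 16223 genes only the authors' mean signal was taken.

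Groups were compared with edgeR 4.0.16 (quasi-likelihood, authors' size factors, no filter, Benjamini-Hochberg over 1054 genes, threshold 0.05) without PN 5, and with an exact permutation test (pseudocount 1). The standard error is the log2 fold change over the square root of F. Checks on simulated data were made. Members and lists were chosen with earlier results of these data known. Named are the 10 genes and every gene of the pathway lists with counts. The smallest chi-square per degree of freedom between libraries was 76.8 over 36 pairs, so no pair looked like 1 library. Alternatives were all libraries, DESeq2 1.42.0, other scalings, filterByExpr, pseudocounts, single libraries left out and the replicate number as a block. The window before MLXIPL is not reported here. Python 3.11.15, pandas 2.3.3, scipy 1.17.1, pysam 0.24.0 and R 4.3.3 were used. Replicates are separate piglets, and p-values measure the spread between these livers only. The paper took the groups from separate litters, so spread between litters is not part of what these p-values measure.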

Additional observations from a re-analysis of the deposited data

Results flagged for a closer look

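In 4 of 48 checks of 24 genes, 1 PN liver stood apart from the others by Dixon's criterion, which flags about 1 group in 20 by chance. KHK was highest in PN 6, at a normalized count of 1507, against 773 in the next of the 6 PN livers. PLIN4 was lowest in PN 5, at 69.9, against 229 in the next. Of the marker genes, CPS1 was highest in PN 3 at 48854 and CSF3R in PN 2 at 114, against 24225 and 38.9 in the next of the 5 PN livers other than PN 5.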

How the results depend on the processing

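MLXIPL stayed lower with PN and past the threshold under every alternative run. Its log2 fold change was -1.14 with DESeq2 and with filterByExpr, -1.12 with TMM factors, and -1.48 with DESeq2 size factors estimated on the table, a scaling that moves the median of all 1054 genes by -0.34. It ranged from -1.28 to -0.997 with single livers left out (adjusted p = 0.00192 to 0.0134, edgeR). For MLXIPL and the 15 related genes, 266 alternative values kept direction and call and 2 lost the call. The 266 include alternatives of the permutation test for MLXIPL. With its groups apart, each gave the smallest p its livers allow, so these could not lose the call. Of all 1054 genes, 932 to 1054 were called under the alternative fits, and 992 of 994 with filterByExpr. A kept call was therefore common to most of the selected genes. MGLL missed the threshold with DESeq2 size factors from the table (log2 fold change 0.86, adjusted p = 0.0565), and ACSS2 over bottle-fed 1 to 3 and PN 1 to 3 without a block (-0.90, adjusted p = 0.0502), an alternative added after seeing the data. These took the related genes called higher from 11 to 10 and those called lower from 4 to 3. The causes were not tested. The same replicate number did not pair livers (correlation of deviations -0.02, -0.04 and -0.03 for numbers 1, 2 and 3, litters separate). The replicate block was fitted over bottle-fed 1 to 3 and PN 1 to 3. With it MLXIPL had a log2 fold change of -1.16 (adjusted p = 0.0115, edgeR) and 932 of 1054 genes were called. The same livers without the block gave -1.14 for MLXIPL (adjusted p = 0.0068, edgeR) and 983 called genes. The main fit, over more livers, called 1051, so the drop to 932 does not come from the block alone.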
